A study of Mus musculus with 6 samples.

Results

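The 10 genes described here mark brown fat, the heat-producing form of adipose tissue. They are Ucp1, Dio2, Cidea, Elovl3, Cox7a1, Cox8b, Prdm16, Ppargc1a, Ebf2 and Zic1. They were chosen by name and matched by symbol to a count table of 55487 genes. All 10 were found, and all 10 passed the filter of a summed count of 10, which left 26596 genes for testing. RNA-Seq had been run on rib cages of mouse embryos at 16.5 dpc (days post coitum), from 3 control embryos (E420, E434 and E435) and 3 mutant embryos (E423, E433 and E440). The mutants carried the Col2-cre transgene and lacked Foxc1 and Foxc2 where it was active (Col2-cre;Foxc1-/-;Foxc2-/-). These genes encode forkhead transcription factors, and Col2-cre is driven by regulatory sequence of the cartilage collagen gene Col2a1. In hind limbs of the study it marked chondrocytes of the growth plate, the perichondrium and the primary ossification center. Its activity was also seen across the developing skeleton. The study further cites Col2-cre activity in somites, in the sclerotome, before those cells migrate. Fat cells and muscle were not the intended sites of deletion. The controls are labelled wild type, and the study describes all comparisons as being between littermates on a mixed C57B6/Black Swiss background. Its cross joined males carrying Col2-cre and 1 deleted allele of each gene to females with floxed alleles of both. The labels do not give the litter of an embryo, and rib cages had been cleaned of connective tissue before freezing.

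Brown adipocytes burn fatty acids in densely packed mitochondria. UCP1 in the inner mitochondrial membrane lets protons return without making ATP, so that the energy of respiration is released as heat. The cells arise in the embryo from somitic mesoderm that also gives rise to dermis and skeletal muscle, under regulators such as EBF2 and PRDM16, and the depots between and below the shoulder blades lie close to the rib cage. Brown fat and skeletal muscle share several mitochondrial genes, among them Cox7a1 and Cox8b.

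The libraries held between 37853988 and 47794799 counts, and 3 counts corresponded to 0.0628 to 0.0793 CPM, that is counts relative to the library total, before scaling. Some libraries stood apart from others of their group. Over genes with at least 200 counts in a pair, the standard deviation of the log2 ratio was 0.156 between controls E420 and E435 and 0.135 between mutants E423 and E440, against 0.481 to 1.31 in the other 13 pairs. Control E434 was rich in cartilage RNA, with 14426 CPM of Col2a1 against 631 and 582 CPM in the other controls, and mutant E433 held 4926 CPM against 177 and 162 CPM in the other mutants. Epidermal RNA differed as well: Krt10, a keratin of the upper epidermis, was at 6.46 CPM in E434 and at 11907 and 12044 CPM in E423 and E440. The liver gene Alb was at 320 CPM in E433 and at no more than 22.5 CPM in any other embryo. The targeted genes were lower in every mutant than in every control, with Foxc1 at 23.1, 36.9 and 24.2 CPM in E420, E434 and E435, as against 3.56, 9.60 and 3.51 CPM in E423, E433 and E440. Foxc2 was at 1.98, 4.83 and 3.22 CPM in the former and 0.649, 1.14 and 0.737 CPM in the latter.

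To ask whether brown fat genes differed between the genotypes, all genes were fitted together with edgeR's quasi-likelihood test. A gene was called when its Benjamini-Hochberg adjusted p was under 0.1 and its log2 fold change reached 1 in either direction. None of the 10 brown fat genes was called, where 0.0639% of all genes tested were. At an unadjusted p under 0.05, 3 of the 10 were higher in mutants (Ucp1, Cidea and Cox7a1) and 0 lower, and 5.9% of all genes were higher at that level. Of the 26596 genes tested, 2820 reached that level in either direction, 1569 of them higher and the rest lower. DESeq2's Wald test at the same limits called the same 3 genes higher, where it called 1.33% of all genes higher, and it called 0 of the 10 lower, where it called 0.459% of all genes lower. The mutant and control embryos did not overlap in 1 gene that was higher (Cox7a1) and in 1 that was lower (Elovl3), while 6.81% of all genes lay apart and higher and 8.21% lay apart and lower. The median log2 fold change of the 10 was 0.35, against 0.0081 over all genes tested.

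**Figure D1:**
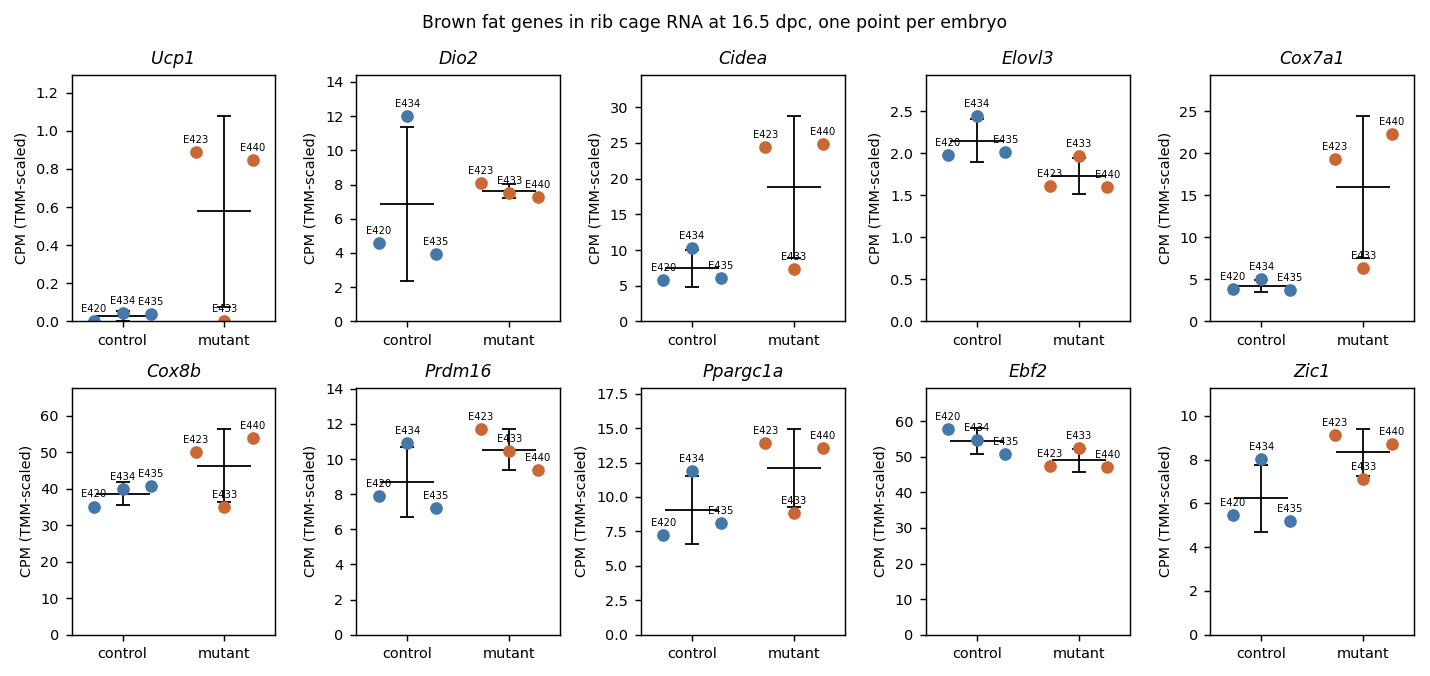
Each panel plots 1 brown fat gene in CPM with TMM scaling, edgeR's adjustment for library composition, on a linear axis from 0, with 1 point per embryo, and the long bar and whiskers give the mean and SD of 3 embryos. In Ucp1, Cidea and Cox7a1 the mutants E423 and E440 sit far above the controls, while E433 lies in or near the control range.

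With edgeR, whether these 3 genes were called depended on mutant E433, and DESeq2 was run only with all 6 embryos. In an edgeR fit without it, the same limits called Ucp1, Cidea and Cox7a1 higher and 0 of the 10 lower, where 2.84% of the 25844 genes tested were called higher and 1.37% lower. That fit rests on E423 and E440, which are 1 of the close pairs above, and with each close pair summed to a single library none of the 10 was called and 0 reached an unadjusted p under 0.05 with edgeR. The number of the 10 lying apart was 8 without E433 (6 higher, 2 lower), where 23.7% of all genes lay apart and higher and 23% lower. It was 7 without control E434 (6 higher, 1 lower), where 14.1% of all genes lay apart and higher and 15.2% lower.

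Ucp1 (ENSMUSG00000031710.4, chromosome 8 from 83290352 to 83298452 in GRCm38) was barely detected in controls. It had 0, 2 and 2 counts in the control embryos (E420, E434, E435) and 37, 0 and 39 counts in the mutant embryos (E423, E433, E440). In CPM with TMM scaling, used throughout, the controls were at 0, 0.0441 and 0.0412 and the mutants at 0.890, 0 and 0.845. A pair of mutants was thus high, and the remaining mutant was as low as the lowest control, so the groups overlapped. Pooled over each group, 76 counts in mutants against 4 in controls gave a ratio of 19.3, adjusted for library size. Its exact binomial 95% interval ran from 7.25 to 72.8 and leaves out the spread between embryos. The interval also treats counts as independent, although both ends of a read pair were counted separately, so it is too narrow even for counting error. The fitted log2 fold change was 4.16 (SE 1.47), with an adjusted p of 0.428 from edgeR and 0.0911 from DESeq2. Without E433 it was 4.74 (edgeR adjusted p = 0.0176), and over all 13 alternative fits of Ucp1 with edgeR or DESeq2 the adjusted p ran from 0.0176 to 0.9998. The other members had 14, because edgeR's own low-count filter (filterByExpr) removed Ucp1 before testing.

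Adipoq, a hormone gene of all fat cells, was itself scarce in controls, at 0.458, 0.0882 and 0.371 CPM, and was at 50.3, 7.19 and 53.2 CPM in E423, E433 and E440. All mutants exceeded all controls (DESeq2 adjusted p = 1.58e-09, edgeR adjusted p = 0.146). In proportion to it, Ucp1 reached 17.7 counts per 1000 Adipoq counts in E423 and 15.9 in E440. In controls E420, E434 and E435 the proportion was 0, 500.0 and 111 per 1000, but on 18, 4 and 18 Adipoq counts and no more than 2 Ucp1 counts in each, so the groups could not be compared in it. E433 had 310 Adipoq counts and 0 of Ucp1. Were all counts independent, counting error would allow up to 9.68 per 1000 in E433. Because both ends of a read pair were counted separately, the true limit is higher. The proportion in E433 thus could not be placed below that in the other mutants. In these whole-tissue libraries fewer cells of a type and less RNA per cell cannot be told apart.

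Cidea (ENSMUSG00000024526.9, chromosome 18 from 67343604 to 67367785) encodes a lipid droplet protein and was well above the detection floor in every embryo. It was at 5.78, 10.3 and 6.14 CPM in the control embryos (E420, E434, E435) and at 24.4, 7.35 and 24.8 CPM in the mutant embryos (E423, E433, E440). E423 and E440 lay at 3.29 and 3.34 times the control mean, whereas E433, at 0.991 times, fell inside the control range. The log2 fold change was 1.34 (SE 0.49), with an adjusted p of 0.430 from edgeR and 0.0545 from DESeq2. It was 1.73 without E433 (edgeR adjusted p = 0.0289), and the adjusted p ran from 0.0289 to 0.9998 over 14 alternatives. Cidec, its relative in lipid droplets of all fat cells, was at 0.124 to 0.305 CPM in controls and at 12.6, 1.76 and 13.4 CPM in the same mutants, without overlap (DESeq2 adjusted p = 4.59e-07, edgeR adjusted p = 0.160). Cideb had at most 0.325 CPM in any embryo.

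The other effectors of heat production followed other patterns. Dio2 (ENSMUSG00000007682.6, chromosome 12 from 90724552 to 90738438) encodes the deiodinase that converts thyroxine to the active thyroid hormone inside the cell. Its level was 4.58, 12.02 and 3.94 CPM in the control embryos (E420, E434, E435) and 8.11, 7.52 and 7.28 CPM in the mutant embryos (E423, E433, E440). The mutants were close together and lay between the low pair of controls and E434. This gave a log2 fold change of 0.16 (SE 0.42, edgeR adjusted p = 0.918). Without E434 it was 0.84 (SE 0.14, edgeR adjusted p = 0.207), and it turned to -0.06 without E420 and to -0.13 without E435, so no direction held for Dio2. Of its relatives, Dio3, which inactivates thyroid hormone, was at 1.37 to 2.09 CPM in controls and 1.06 to 2.44 CPM in mutants, and Dio1 had at most 0.144 CPM.

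Elovl3 (ENSMUSG00000038754.5, chromosome 19 from 46131897 to 46135694) encodes an elongase of very long chain fatty acids that is abundant in cold-exposed brown fat and in sebaceous glands. It was at 1.98, 2.45 and 2.02 CPM in controls and at 1.61, 1.97 and 1.603 CPM in E423, E433 and E440. All mutants were below all controls, but E433 missed the lowest control only narrowly, and the groups overlapped with DESeq2 size factors and in the STAR-RSEM counts. Elovl3 had a log2 fold change of -0.32 (SE 0.18, edgeR adjusted p = 0.573). Members of the family that are expressed in epidermis showed the largest fold changes among its relatives. Elovl1 was at 303, 69.2 and 301 CPM in E423, E433 and E440 against 36.4 to 106 CPM in controls. Elovl4 was at 229, 51.8 and 205 CPM against 5.36 to 130 CPM, and Elovl7 at 69.4, 10.2 and 66.4 CPM against 1.28 to 19.2 CPM. For these 3 genes E434 was the lowest embryo, as it was for Krt10, and their adjusted p from edgeR lay between 0.484 and 0.783. Elovl5 was lower in all mutants, at 39.8 to 50.7 CPM against 55.2 to 58.6 CPM (edgeR adjusted p = 0.389), Elovl6 was at 51.0 to 62.5 CPM against 50.6 to 56.0 CPM, and Elovl2 at 0.672 to 2.85 CPM against 1.39 to 1.71 CPM.

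Cox7a1 and Cox8b encode subunits of cytochrome c oxidase, the last enzyme of the respiratory chain, in the versions used by muscle and brown fat. Cox7a1 (ENSMUSG00000074218.3, chromosome 7 from 30184144 to 30186078) gave the clearest difference among the 10. It was at 3.92, 5.05 and 3.73 CPM in the control embryos (E420, E434, E435) and at 19.3, 6.38 and 22.4 CPM in the mutant embryos (E423, E433, E440). Every mutant lay above every control, E433 by the smallest margin. Cox7a1 had a log2 fold change of 1.92 (SE 0.45), with an adjusted p of 0.331 from edgeR and 0.000291 from DESeq2, and 2.30 without E433 (edgeR adjusted p = 0.00425). Over its 14 alternatives the adjusted p ran from 0.000291 to 0.9998, and the log2 fold change from 1.6 to 2.3.

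Cox8b (ENSMUSG00000025488.9, chromosome 7 from 140898945 to 140900446) was at 35.1, 40.1 and 40.8 CPM in controls and at 50.1, 35.0 and 54.0 CPM in E423, E433 and E440. The same pair of mutants was high, but by a far smaller factor than in Cox7a1, and E433 was by a narrow margin the lowest of all 6 embryos. Cox8b had a log2 fold change of 0.26 (SE 0.17, edgeR adjusted p = 0.617).

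Each of these subunits has a counterpart present in all tissues, and the balance within each pair was set out in TPM, a unit corrected for gene length and library size. Cox7a1 made up 5.06, 7.08 and 4.91% of the TPM of Cox7a1 and Cox7a2 together in E420, E434 and E435, and 16.6, 7.99 and 17.8% in E423, E433 and E440. Every mutant share was above every control share. By contrast, Cox8b made up 28.03 to 29.9% of Cox8a and Cox8b in controls and 28.6 to 31.6% in mutants, where the groups overlapped. In CPM, Cox7a2 was at 140 to 145 in controls and 145 to 203 in mutants (log2 fold change 0.34, edgeR adjusted p = 0.448), Cox8a at 177 to 189 and 167 to 226, and Cox7a2l, a relative that takes part in supercomplexes, at 136 to 159 and 132 to 153. Cox8c had no counts in any embryo.

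**Figure D2:**
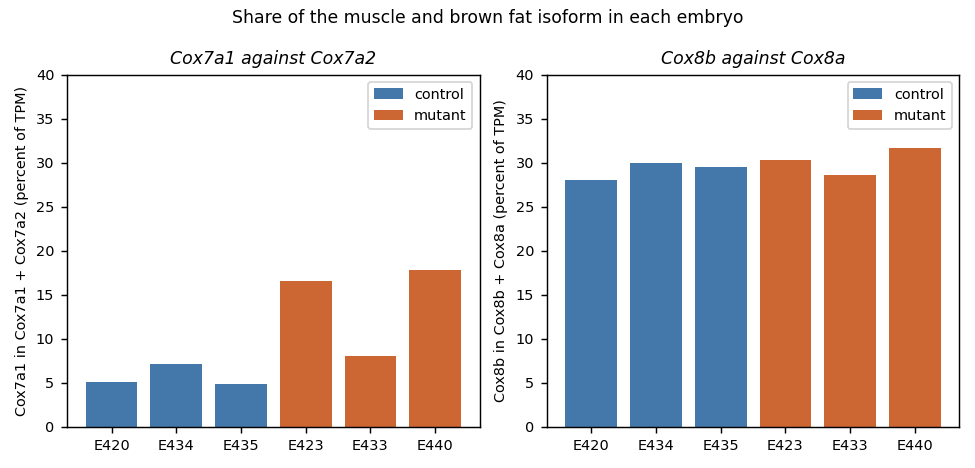
Bars give the percentage of TPM that the muscle and brown fat version took of its pair in each embryo, Cox7a1 against Cox7a2 at left and Cox8b against Cox8a at right, on axes from 0 to 40%. The Cox7a1 share is above 16% in E423 and E440, at 7.99% in E433 and at no more than 7.08% in controls, while the Cox8b share stays between 28.03 and 31.6%.

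Since muscle also uses both subunits, the skeletal muscle list of 16 genes is given beside them. Its summed level was 16335 to 26215 CPM in controls and 36069, 20395 and 35304 CPM in E423, E433 and E440, with a median log2 fold change of 0.54, and 13 of 16 were above 0. DESeq2 called 1 gene higher (Actn3), and edgeR called none, with 5 at an unadjusted p under 0.05 in the higher direction and 1 in the lower. Of all genes, 5.9% were higher at that level and DESeq2 called 1.33% higher. Acta1, Ckm and the muscle subunit Cox6a2 had log2 fold changes of 0.70, 0.75 and 0.53, fast-fiber Actn3 and perinatal Myh8 had 1.71 and 1.26, while Mb, Myog and Myod1 had -0.15, -0.17 and -0.35. Against the summed muscle level, Cox7a1 was at 0.240, 0.193 and 0.223 CPM per 1000 CPM of the list in E420, E434 and E435 and at 0.535, 0.313 and 0.633 in the mutants. These ratios did not overlap. For Cox8b they were 2.15, 1.53 and 2.44 in controls and 1.39, 1.72 and 1.53 in mutants, which did overlap. Cidea stood at 0.354 to 0.395 in controls and at 0.676, 0.361 and 0.703 in mutants. Against the summed level of the 22 general fat cell genes, both genes overlapped between the groups. Cox7a1 was at 3.66, 6.75 and 3.46 CPM per 1000 CPM of that list in controls and at 7.89, 6.20 and 9.08 in mutants, and Cidea at 5.39, 13.8 and 5.69 in controls and at 9.98, 7.15 and 10.1 in mutants. The sum itself was 1072, 748 and 1079 CPM in E420, E434 and E435, with Fabp5 alone at 354, 79.9 and 349 CPM. In E433 it was 1029 CPM, below E420 and E435, although Adipoq was higher in E433 than in any control. The sum is thus not a plain measure of fat content. The part of muscle, epidermal or liver RNA in the differences of these genes was not tested.

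Upstream sequences are shown for Cox7a1 and Ucp1, which had the largest folds, and for Cox8b, which muscle and brown fat use as well but which differed little. They are the 250 bases before the RefSeq transcription start on GRCm38.p6, written along the gene's strand: chr7:30183921-30184170 (plus strand) for Cox7a1, chr7:140900447-140900696 (minus strand) for Cox8b and chr8:83290098-83290347 (plus strand) for Ucp1. The annotation used for counting starts Cox7a1 slightly earlier, at 30184144. Capitals mark matches to the nuclear receptor half-site AGGTCA, the cAMP half-site TGACG and the E-box CANNTG on either strand.
Cox7a1: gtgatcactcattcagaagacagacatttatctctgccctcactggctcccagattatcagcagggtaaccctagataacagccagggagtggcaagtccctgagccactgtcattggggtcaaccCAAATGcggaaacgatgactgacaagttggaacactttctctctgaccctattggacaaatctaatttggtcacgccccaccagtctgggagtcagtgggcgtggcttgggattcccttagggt
Cox8b: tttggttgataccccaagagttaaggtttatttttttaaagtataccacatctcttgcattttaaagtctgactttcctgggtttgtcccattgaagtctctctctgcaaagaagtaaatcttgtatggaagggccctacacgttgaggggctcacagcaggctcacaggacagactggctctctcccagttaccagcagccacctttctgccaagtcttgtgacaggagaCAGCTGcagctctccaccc
Ucp1: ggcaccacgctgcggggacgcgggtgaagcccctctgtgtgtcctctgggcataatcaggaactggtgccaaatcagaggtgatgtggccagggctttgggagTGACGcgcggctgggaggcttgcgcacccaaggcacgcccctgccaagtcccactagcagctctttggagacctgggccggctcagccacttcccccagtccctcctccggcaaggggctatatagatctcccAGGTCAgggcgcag
Each Cox gene held a single E-box in this window and neither of the other motifs. Ucp1 held 1 match to AGGTCA, starting 14 bases before the start, and 1 to TGACG and no E-box. Across 32851 windows of this length, 14.0% held AGGTCA, 17.8% held TGACG and 66.2% held CANNTG. Among the 7 genes of the set with a window (Ucp1, Dio2, Cox7a1, Cox8b, Prdm16, Ppargc1a and Zic1), the full cAMP element TGACGTCA, which contains TGACG and occurred in 1.55% of windows, was found in Dio2. Neither the binding core of EBF factors, CCCNNGGG (11.8% of windows), nor TCAAGGTCA, the site of estrogen-related receptors, which contains AGGTCA (0.387%), was found in any of the 7. A match describes letters in this window and is not a measured site.

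The regulators of the brown fat lineage were expressed in every embryo and differed little. Prdm16 (ENSMUSG00000039410.16, chromosome 4 from 154316125 to 154636873), whose product drives precursors to the brown fate, was at 7.89, 10.9 and 7.23 CPM in controls and 11.7, 10.5 and 9.38 CPM in E423, E433 and E440. E434 lay among the mutants, and the log2 fold change was 0.28 (SE 0.19, edgeR adjusted p = 0.639). In the deposited TPM, which were not scaled by TMM, its mean was lower in mutants, at 2.77 against 3.08 TPM. The RSEM expected counts with TMM scaling gave a log2 fold change of 0.27, so the direction differed in TPM but not in those counts. Ppargc1a (ENSMUSG00000029167.13, chromosome 5 from 51454250 to 51567726), a coactivator of mitochondrial genes in brown fat and muscle, was at 7.25, 11.9 and 8.08 CPM in controls and 13.9, 8.86 and 13.5 CPM in mutants. Here E423 and E440 were above all controls and E433 was not, with a log2 fold change of 0.42 (SE 0.25, edgeR adjusted p = 0.594). Its relative Ppargc1b was at 11.3 to 15.0 CPM in controls and at 20.6, 16.1 and 20.8 CPM in mutants, without overlap (log2 fold change 0.56, edgeR adjusted p = 0.381), and Pprc1 at 66.1 to 72.7 and 65.2 to 73.9 CPM.

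Ebf2 (ENSMUSG00000022053.13, chromosome 14 from 67233292 to 67430918), which acts with PRDM16 and PPARG on brown fat genes and is also expressed in other mesenchymal cells, was at 57.8, 54.8 and 50.7 CPM in controls. The mutants E423, E433 and E440 were at 47.3, 52.6 and 47.1 CPM. E433 lay within the control range, the other mutants just below it, and the log2 fold change was -0.15 (SE 0.09, edgeR adjusted p = 0.568). Zic1 (ENSMUSG00000032368.14, chromosome 9 from 91358058 to 91365810), a zinc finger gene used to mark classical brown fat against beige and white fat, was at 5.47, 8.01 and 5.21 CPM in controls and 9.14, 7.12 and 8.73 CPM in mutants. Again E434 overlapped with the mutants, and the log2 fold change was 0.42 (SE 0.21, edgeR adjusted p = 0.525). Without E434, Zic1 was at 0.64 (edgeR adjusted p = 0.304), Ppargc1a at 0.66 (edgeR adjusted p = 0.424) and Prdm16 at 0.48 (edgeR adjusted p = 0.384).

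**Figure D3:**
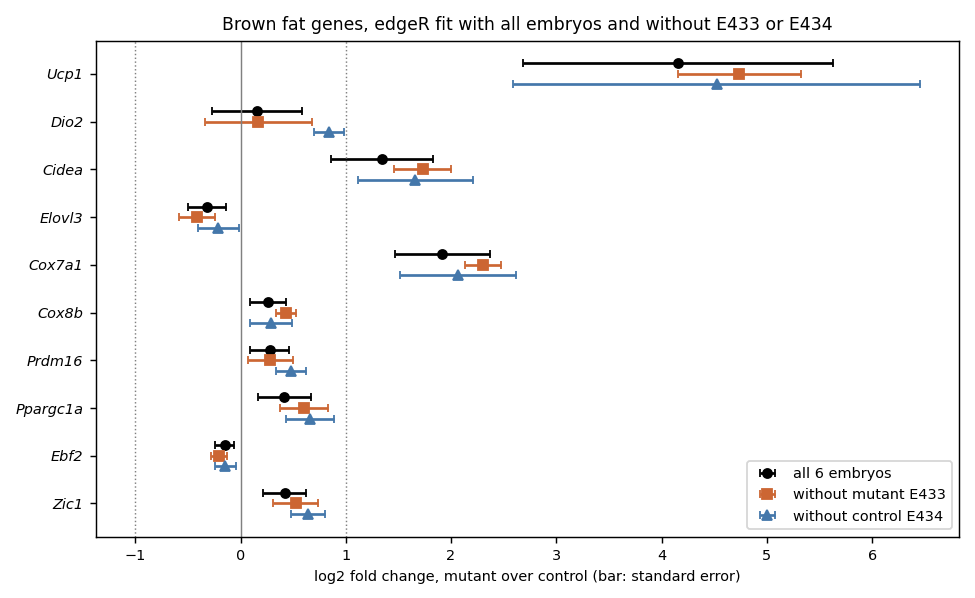
Points give the edgeR log2 fold change of mutant over control for each brown fat gene and bars its standard error, in the fit of all 6 embryos (circles), without mutant E433 (squares) and without control E434 (triangles). Dotted lines mark the fold limit of 1 in either direction, which Ucp1, Cidea and Cox7a1 exceed in all 3 fits and the other 7 genes in none.

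Counting did not use strand, and reads in exons shared by overlapping genes were left out of both. The exons of Ebf2 overlapped an antisense gene over 424 of 6928 bases, those of Prdm16 over 109 of 9321, those of Dio2 over 100 of 5815, those of Zic1 overlapped Zic4 over 60 of 5693 and those of Elovl3 overlapped Pitx3 over 10 of 1975. Ucp1, Cidea, Cox7a1, Cox8b and Ppargc1a had no overlap.

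Per length, the order in controls ran from Cox8b at 268 ± 19.9 TPM (SD, n = 3) through Cox7a1 at 24.3 ± 5.73, Ebf2 at 16.9 ± 1.47 and Cidea at 9.95 ± 3.39 TPM. Each of these neighbours differed without overlap of the 3 controls. Prdm16 at 3.08 ± 0.341, Ppargc1a at 2.39 ± 0.477, Zic1 at 2.36 ± 0.570, Dio2 at 1.66 ± 1.09 and Elovl3 at 1.55 ± 0.251 TPM followed, where each neighbour overlapped with the next. Ucp1 came last at 0.0267 ± 0.0231 TPM, below all others in every control. In mutants, Cox7a1 was at 101, 38.6 and 115 TPM in E423, E433 and E440, and Cidea at 30.8, 10.5 and 30.3 TPM, which put Cidea above Ebf2 (13.9, 18.3 and 13.7 TPM) in E423 and E440 and below it in E433. Ucp1 reached 0.740 and 0.700 TPM in E423 and E440 and was still the least abundant of the 10 in each mutant.

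A list of 30 other genes enriched in brown fat was placed beside these. Its median log2 fold change was 0.46, and 25 of 30 were above 0. EdgeR called none, 12 were higher and 1 lower at an unadjusted p under 0.05, and DESeq2 called 5 higher (Otop1, Kcnk3, Lhx8, Cpt1b and Irf4, named after their values were seen) and 0 lower. Groups lay apart in 9 genes that were higher and 2 that were lower. For this list and those below, the shares over all genes tested serve as background. Of all genes, 5.9% (1569) were higher at an unadjusted p under 0.05 with edgeR, and 2820 reached that level in either direction. DESeq2 called 1.33% higher and 0.459% lower, and 6.81% lay apart and higher and 8.21% apart and lower. Otop1, a proton channel gene, had 0 counts in every control and 60, 4 and 73 counts in E423, E433 and E440. Kcnk3, a potassium channel gene, was at 2.85, 3.20 and 1.98 CPM in controls and 12.2, 6.12 and 12.5 CPM in mutants (log2 fold change 1.94, DESeq2 adjusted p = 6.43e-07, edgeR adjusted p = 0.189). In both genes E433 was above all controls but below the other mutants. For Otop1 this rested on 4 counts in E433, where both ends of a read pair were counted separately.

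A different pattern among the 5 was an even level in the mutants. Irf4, a partner of PGC-1α in heat production, was at 1.17, 0.838 and 1.05 CPM in controls and 2.31, 2.62 and 2.45 CPM in mutants (log2 fold change 1.27, DESeq2 adjusted p = 0.000189, edgeR adjusted p = 0.152). Lhx8, a homeobox gene used as a brown fat marker, was at 0.0509, 0.0882 and 0.0824 CPM in controls and 0.385, 0.394 and 0.455 CPM in mutants (log2 fold change 2.42, DESeq2 adjusted p = 0.0249, edgeR adjusted p = 0.156). Cpt1b, which admits fatty acids to mitochondria of muscle and brown fat, was at 0.814 to 1.52 CPM in controls and 2.41 to 2.77 CPM in mutants (log2 fold change 1.22, DESeq2 adjusted p = 0.00732, edgeR adjusted p = 0.286). For these 3 genes E433 lay with the other mutants, unlike in Ucp1, Cidea and Cox7a1.

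Plin5, a lipid droplet gene of oxidative tissue, was at 1.04, 2.85 and 0.948 CPM in controls and 10.9, 1.74 and 12.5 CPM in E423, E433 and E440, with E433 in the control range (log2 fold change 2.38, edgeR adjusted p = 0.413, DESeq2 adjusted p = 0.147). Ucp3, the uncoupling protein relative of muscle and brown fat, was at 1.58 to 2.34 CPM in controls and 3.13 to 3.81 CPM in mutants (log2 fold change 0.86, edgeR adjusted p = 0.310), and Ucp2, expressed in many tissues, was at 81.3 to 85.2 and 80.0 to 86.3 CPM. The lowest fold changes among genes with a mean of at least 1 CPM were those of S100b (-0.52) and Ntrk3 (-0.40), neither past the test with edgeR or DESeq2.

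**Figure D4:**
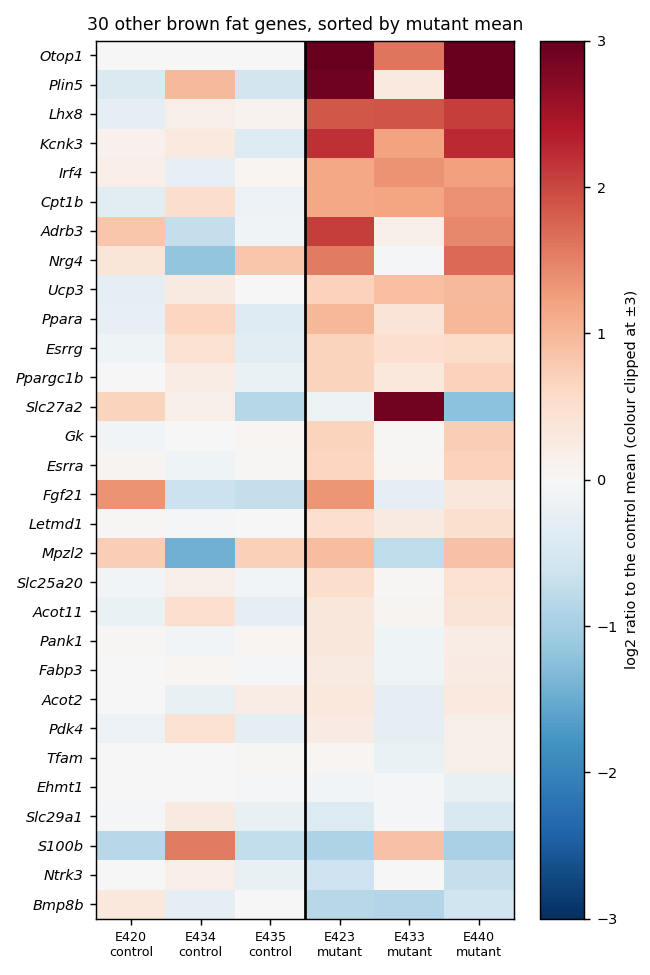
The heat map shows 30 other brown fat genes (rows, sorted by their mean in mutants) in 6 embryos (columns) as the log2 ratio to the control mean, with colour clipped at 3 in either direction. Otop1, Plin5, Lhx8 and Kcnk3 head the list, and E433 is paler than E423 and E440 for Plin5 and Kcnk3 but not for Lhx8, Irf4 and Cpt1b.

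Genes of fat cells in general had a larger median than the brown fat genes. In a list of 22, the median log2 fold change was 1.54, 21 were above 0, edgeR called 0, 16 were higher at an unadjusted p under 0.05 and 0 lower, and DESeq2 called 10 higher. In 12 of them the mutants lay above the controls without overlap, as they did in 6.81% of all genes. Pparg, the master regulator of fat cells, was at 5.57, 5.38 and 5.92 CPM in controls and 22.8, 11.6 and 24.9 CPM in mutants (log2 fold change 1.81, DESeq2 adjusted p = 6.56e-08, edgeR adjusted p = 0.158). Plin1 was at 0.280, 0.0662 and 0.289 CPM in controls and 38.7, 4.08 and 38.0 CPM in mutants, and Fabp4 at 125 to 140 CPM in controls and 457, 178 and 474 CPM. Cebpa, at 11.7 to 70.4 CPM in controls and 150, 49.1 and 149 CPM in mutants, overlapped between groups. In each of these genes E433 was the lowest mutant. Scd1 alone had a log2 fold change below 0 (-0.36).

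Mitochondrial genes were examined because several of the 10 act in respiration. All 24 nuclear genes of respiration, fatty acid oxidation and the citric acid cycle had log2 fold changes above 0, with a median of 0.47, led by Acadvl (0.70) and Idh3a (0.69). None was called by edgeR or by DESeq2 at the fold limit, 16 were higher at an unadjusted p under 0.05, and groups lay apart in 5. Over all genes, 5.9% were higher at that level and 6.81% lay apart and higher. The 10 cytochrome c oxidase subunits of all tissues had a median of 0.31, with 4 higher at an unadjusted p under 0.05 and none called. The log2 fold change of Cox8b (0.26) was close to that median and that of Cox7a1 (1.92) above every one of these subunits, whose highest was Cox5a (0.52).

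**Figure D5:**
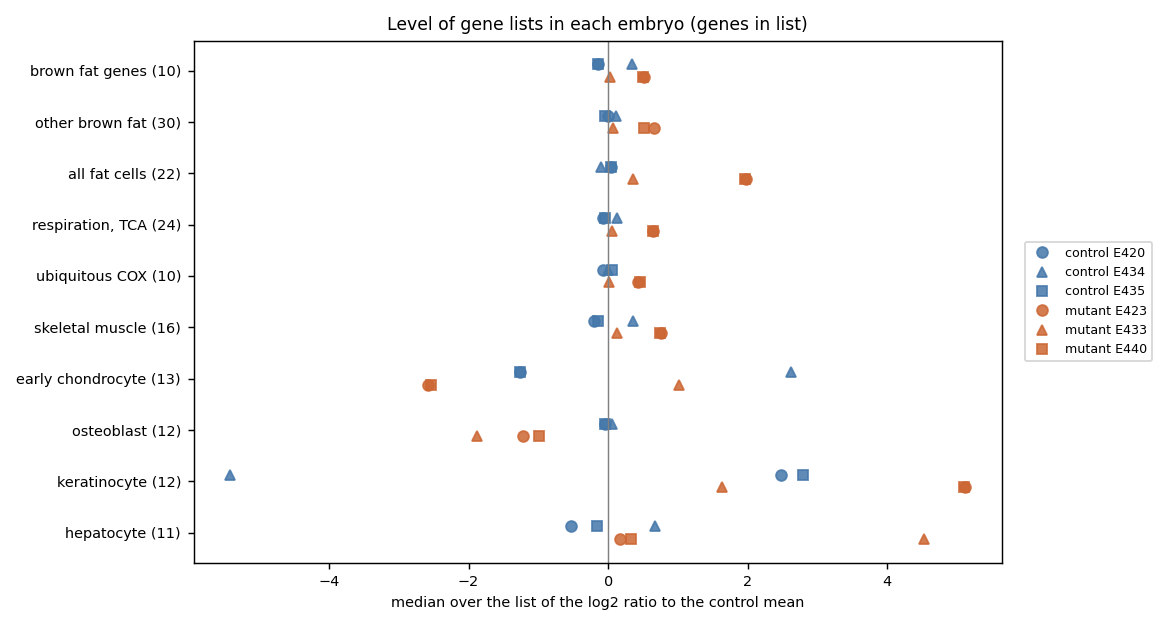
Each point is the median over a gene list (rows, number of genes in brackets) of the log2 ratio to the control mean in 1 embryo, controls in blue and mutants in orange. E423 and E440 lie to the right of E433 in the lists of fat cells, respiration, muscle and keratinocytes, E434 and E433 to the right in early chondrocyte genes, and E433 alone in hepatocyte genes.

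Lists of other cell types also differed between embryos. The 12 keratinocyte genes summed to 13.1 to 6560 CPM in controls and 28772, 3339 and 28921 CPM in E423, E433 and E440, with a median log2 fold change of 2.25, and Flg, of late epidermis, was at 546, 0.116 and 481 CPM in mutants and at most 0.102 CPM in controls. Among controls, E434 had the lowest summed keratinocyte level, the highest summed muscle level and the highest levels of Cidea and Cox7a1. Early chondrocyte genes (13) summed to 1985 to 27024 CPM in controls, and to 719, 10015 and 696 CPM in the same mutants. Hepatocyte genes (11) summed to 59.0 to 90.8 CPM in controls and 66.4, 800.0 and 65.2 CPM in mutants. Osteoblast genes (12) summed to 7995 to 8388 CPM in mutants and 11520 to 16640 CPM in controls, with a median log2 fold change of -1.23, and edgeR called 1 of them lower (Phex) and DESeq2 7. Erythroid genes (8) summed to 22586 to 27787 CPM in controls and 9368, 18217 and 9513 CPM in E423, E433 and E440, with a median log2 fold change of -0.98, 5 apart and lower, 0 called by edgeR (5 lower at an unadjusted p under 0.05) and 2 called lower by DESeq2. The part of any of these in the brown fat genes was not tested.

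Likeness to other genes over the 6 embryos was measured for Ucp1, Cidea, Cox7a1 and Cox8b, and the points share library, composition and the close pairs. Among 13950 protein-coding genes with a mean of at least 1 CPM, the 5 most correlated with Ucp1 in log2 CPM were Cdc34, Letm1, Sod2, Ndufa10 and Uqcrb (Pearson's r from 0.996 to 0.998, n = 6). For Cidea they were Sucla2, Idh3g, Mybpc2, Fam189a2 and Dyrk1b, for Cox7a1 they were Aif1l, Trarg1, 6430571L13Rik, Cpt2 and Samm50, and for Cox8b they were Mrpl16, Uqcrfs1, Pradc1, Uck1 and Vapa. All of these had r of at least 0.995. An r above 0.9 was reached by 7.73% of genes with Ucp1, 7.05% with Cidea, 6.94% with Cox7a1 and 4.70% with Cox8b, given as a description only.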

How the data were processed

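Rib cage RNA of 3 control and 3 mutant embryos at 16.5 dpc was sequenced by the authors from poly(A) mRNA libraries as paired reads of 42 bases. The authors aligned reads to GRCm38 with HISAT2 2.1.0 and deposited raw counts per gene from featureCounts 1.6.0 on exons, in which each read end counted separately, strand was ignored and multi-mapping reads were left out. Also deposited by the authors were expected counts and TPM per gene from STAR 2.7.6 and RSEM 1.2.31. Tables of the authors' own DESeq2 comparisons (fold changes and adjusted p-values), with 12 further columns of per-sample values, were not used here. Symbols, for 55141 of 55487 gene IDs, came from GENCODE annotation on GRCm38, and upstream sequences from RefSeq, which held 7 of the 10 genes.

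Groups came from the labels. Counts were scaled by TMM and fitted with edgeR 4.0.16 (glmQLFit, glmQLFTest) in R 4.3.3 on genes with a summed count of at least 10. A gene was called when its Benjamini-Hochberg adjusted p over all genes was under 0.1 and its log2 fold change reached 1 either way. DESeq2 1.42.0 was an alternative. Ratios to the control mean used log2 CPM with a prior count of 2. The TPM were taken as deposited. The script was tested on simulated data. All p-values measure the spread between embryos, and with 3 against 3 an exact permutation test could not go below 0.1, so none was run. The genes and lists were chosen with earlier results of these data known. All members were named, as were the defining and most changed genes of each list, relatives of the members and the 5 genes most like Ucp1, Cidea, Cox7a1 and Cox8b. The values of 1 gene of the lists are not reported here.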

Additional observations from a re-analysis of the deposited data

How the results depend on the processing

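Over all genes, 17 were called, and the number was 477 with DESeq2's Wald test, 37 without a filter on low counts, 35 with a robust fit, 10 with RSEM expected counts, 359 with RSEM counts and DESeq2, and 0 with close libraries summed (769 at an unadjusted p under 0.05). At limits of 0.01 and 0.05 on the adjusted p it was 0 and 0 (2820 at an unadjusted p under 0.05). Leaving out 1 embryo gave 0 to 1087, the last without mutant E433 and 0 without any of E420, E435, E423 and E440. Of the 10 brown fat genes, 0 were called with edgeR, 3 with DESeq2, 2 with RSEM counts and DESeq2 (Cidea and Cox7a1), and 0 to 3 with 1 embryo left out, 3 only without E433. The number lying apart was 2, and 1 with DESeq2 size factors, 1 with RSEM counts, and 2 to 8 with 1 embryo left out. Over all genes, 6.81% lay apart and higher and 8.21% lower with all embryos. Without E433 these shares were 23.7% and 23%, and without E434 they were 14.1% and 15.2%. For the other settings no share was computed. The median log2 fold change of 0.35 ran from 0.25 to 0.65 with 1 embryo left out, 0.65 without E434, and was 0.19 with close libraries summed. The log2 fold change of Dio2 reversed to -0.10 with close libraries summed, and ran from -0.13 to 0.84 with 1 embryo left out. The cause of these changes was not tested. Of the values of single brown fat genes under alternatives, 128 kept direction and side of the threshold, 8 passed it and 3 reversed. No paired analysis was possible because embryo numbers in the labels pair no control with a mutant. Depth limits Ucp1, which had no more than 39 counts in any embryo.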

Other observations

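The adrenergic and thyroid signal chain upstream of Ucp1 was described by 15 genes, which had a median log2 fold change of 0.02, with 0 called by edgeR or DESeq2 and 1 higher and 1 lower at an unadjusted p under 0.05. Adrb3, the beta-adrenergic receptor of fat cells, was at 0.280, 0.0662 and 0.124 CPM in the control embryos (E420, E434, E435) and 0.722, 0.162 and 0.455 CPM in the mutant embryos (E423, E433, E440), with E433 in the control range (log2 fold change 1.52, edgeR adjusted p = 0.512). Adrb1 had a log2 fold change of 0.51 and Prkar2b, a regulatory subunit of protein kinase A, one of 0.57. Adcy3, an adenylyl cyclase, was at 18.3 to 21.1 CPM in mutants against 21.9 to 29.3 CPM in controls (log2 fold change -0.36, edgeR adjusted p = 0.437), and Gnas had -0.16.

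Genes tied to white or beige rather than brown fat were also higher in part. In a list of 12, the median log2 fold change was 0.69, 7 lay apart and higher, edgeR called 0, with 6 higher at an unadjusted p under 0.05, and DESeq2 called 4 (Lep, Retn, Agt and Hoxc10, named after their values were seen). The shares over all genes were 6.81% apart and higher, 5.9% higher at that level and 1.33% called higher by DESeq2. Lep and Retn, hormone genes of white fat, are also in the list of general fat cell genes above and were counted there. Both were at 0 CPM in every control. Lep was at 0.722, 0.139 and 0.368 CPM in E423, E433 and E440, and Retn at 1.010, 0.278 and 1.30 CPM. Agt, angiotensinogen, was at 4.45 to 10.7 CPM in controls and 11.97 to 16.7 CPM in mutants, Tbx1, a beige fat marker, had a log2 fold change of 0.96 and Nnat -0.07.

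Among 21 tested partners and relatives of Prdm16, Ebf2 and Zic1, the median log2 fold change was -0.13, edgeR called 0, with 3 higher and 3 lower at an unadjusted p under 0.05, and DESeq2 called 1. Zic4, a relative of Zic1, was at 0.309 to 0.453 CPM in controls and 0.603 to 0.997 CPM in mutants and was not called by either tool. Bmp7, a growth factor that promotes brown fat, had a log2 fold change of 0.65 (edgeR adjusted p = 0.425) and Pax3 0.49. Meox1, a somite gene, was at 37.3, 49.6 and 38.3 CPM in controls and 17.9, 32.7 and 18.2 CPM in mutants (DESeq2 adjusted p = 0.0433, log2 fold change -0.86, edgeR adjusted p = 0.394), and Ebf3 had -0.39. Myf5, which marks precursors shared by muscle and brown fat, was at 16.4 to 17.5 CPM in controls and 11.4 to 15.6 CPM in mutants (edgeR adjusted p = 0.440).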
